A study of Homo sapiens with 14 samples.

Results

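The genes described here are readouts of signalling from receptor kinases: PIM1, PIM2, SOCS2, CISH and BCL6, which respond to the transcription factor STAT5, and DUSP6, SPRED1, SPRED2, SPRY2 and SPRY4, which belong to the negative feedback on the RAS-ERK (MAPK) cascade. They were chosen by symbol, from knowledge of the pathways, with earlier results of these data already known. Of the 10 symbols, 9 had a row in at least 1 of the 3 deposited tables and 8 had a row in all 3, out of 16336 gene rows in any table. SPRED1 had a row in the EOL-1 table only, and its level in MV4;11 cells was not analysed here, nor was SPRY4 in either line. Every row present passed the filter on low counts, which makes 8 genes tested in each MV4;11 comparison and 9 in EOL-1.

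RNA-seq was made from MV4;11 and EOL-1 cells, human leukaemia lines, in 14 libraries, 2 in each of 7 groups. In MV4;11 cells, shEZH2 (a hairpin against EZH2, the histone H3 lysine 27 methyltransferase of Polycomb) was set against EV, and sgcMyc guide 1 and sgcMyc guide 5 (guide RNAs against the MYC gene) were set against sgEV. In EOL-1 cells, sgEZH2 was set against sgEV, with no guide number in the sample title; the table's columns call it guide 1. All groups, EV and sgEV included, received doxycycline at 1 µg/ml over 4 days. The labels do not say whether a line is a clone, which Cas9 line carried the guides, or whether a group's 2 libraries stem from separate cultures, so every p-value measures only the spread between these libraries.

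STAT5 is phosphorylated by JAK kinases and by activated receptor kinases, moves to the nucleus and binds paired TTC and GAA half-sites; MV4;11 cells are known for an activated FLT3 receptor and EOL-1 cells for a FIP1L1-PDGFRA fusion kinase. PIM1 and PIM2 are serine/threonine kinases that promote survival and growth, CISH and SOCS2 are SOCS-box proteins that damp cytokine receptor signalling, and BCL6 is a transcriptional repressor that STAT5 is known to repress. DUSP6 dephosphorylates ERK kinases, while SPRED and SPRY proteins restrain RAS activation, and ERK signalling raises many of these inhibitors in turn.

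Promoter windows from RefSeq (build GRCh38.p14, 250 bases before to 50 bases after each start) matched 9 of the 10 symbols, all but SOCS2, some with more than 1 start. The windows were searched for TTCNNNGAA, the spaced palindrome that STAT proteins are known to bind, which reads the same on both strands. It occurred 4 times in the CISH window and 4 times in the window of one BCL6 start, and in none of the windows of PIM1, PIM2, DUSP6, SPRED1, SPRED2, SPRY2 and SPRY4. Of all 35116 windows, 7.66% held it at least once and 7 windows (0.0199%) held it 4 or more times. CACGTG, the E-box that MYC and its partner MAX are known to bind (7.26% of windows), and CCGGAAGT with its reverse complement ACTTCCGG, an ETS motif (4.14% of windows), occurred in none of the members' windows. Both windows with the motif are shown because their genes are the 2 STAT5 readouts with sites near the start; the motif is in capitals, each sequence is on the gene's own strand, CISH at chr3:50611725-50612024 and BCL6 at chr3:187745419-187745718, both on the minus strand.
CISH: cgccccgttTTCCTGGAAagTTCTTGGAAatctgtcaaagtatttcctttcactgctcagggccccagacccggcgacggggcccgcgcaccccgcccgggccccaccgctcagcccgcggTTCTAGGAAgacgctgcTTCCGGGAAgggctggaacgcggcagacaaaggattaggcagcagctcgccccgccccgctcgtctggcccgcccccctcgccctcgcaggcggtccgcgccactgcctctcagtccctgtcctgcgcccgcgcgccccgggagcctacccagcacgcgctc
BCL6: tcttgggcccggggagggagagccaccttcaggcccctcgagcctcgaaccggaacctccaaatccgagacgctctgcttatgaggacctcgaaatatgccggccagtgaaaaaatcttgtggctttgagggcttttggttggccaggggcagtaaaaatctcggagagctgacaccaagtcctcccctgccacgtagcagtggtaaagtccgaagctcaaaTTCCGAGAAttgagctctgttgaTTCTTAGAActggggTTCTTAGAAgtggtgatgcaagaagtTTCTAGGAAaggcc

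The CISH sites were TTCCTGGAA and TTCTTGGAA at -241 and -230 and TTCTAGGAA and TTCCGGGAA at -129 and -112 from the start, counted to the first base of the site with the start base as 0. Those of BCL6 were TTCCGAGAA at -28, TTCTTAGAA at -5 and again at 10, and TTCTAGGAA at 36. A match is a run of letters, and no binding was measured in these data.

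Windows of 3 members without that motif are shown with their CG pairs, since CG-rich promoters are the usual sites of Polycomb, the complex of EZH2. They are PIM1, the member called in every main comparison (chr6:37169902-37170201, plus strand), PIM2, which was called in opposite directions in the 2 lines (chrX:48918975-48919274, minus strand), and SPRED1, with the largest change (chr15:38252586-38252885, plus strand). CG pairs are in capitals. PIM1 had 39 of them, more than 91.3% of all windows, SPRED1 had 32 (more than 81.1%) and PIM2 had 23 (more than 64.2%), beside a median of 14 over all windows. Such counts were not particular to these 3 members. CISH had 33, SPRY4 had 26, and the richest windows of SPRY2 and SPRED2 had 30 and 23. DUSP6 had 19 and the richest BCL6 window 12. No Polycomb binding was measured in these data.
PIM1: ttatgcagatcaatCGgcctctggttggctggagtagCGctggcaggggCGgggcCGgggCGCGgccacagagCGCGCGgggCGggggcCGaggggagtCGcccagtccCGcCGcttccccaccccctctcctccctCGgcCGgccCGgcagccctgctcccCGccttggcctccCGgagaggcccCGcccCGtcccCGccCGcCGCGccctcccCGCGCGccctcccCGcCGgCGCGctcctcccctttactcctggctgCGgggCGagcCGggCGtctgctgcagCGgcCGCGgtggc
PIM2: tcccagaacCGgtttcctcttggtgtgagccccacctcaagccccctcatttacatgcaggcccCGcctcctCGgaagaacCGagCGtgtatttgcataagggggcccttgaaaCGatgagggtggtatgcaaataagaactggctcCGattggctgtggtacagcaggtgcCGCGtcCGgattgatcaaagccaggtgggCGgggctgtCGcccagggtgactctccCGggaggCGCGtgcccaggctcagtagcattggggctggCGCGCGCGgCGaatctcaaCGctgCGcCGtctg
SPRED1: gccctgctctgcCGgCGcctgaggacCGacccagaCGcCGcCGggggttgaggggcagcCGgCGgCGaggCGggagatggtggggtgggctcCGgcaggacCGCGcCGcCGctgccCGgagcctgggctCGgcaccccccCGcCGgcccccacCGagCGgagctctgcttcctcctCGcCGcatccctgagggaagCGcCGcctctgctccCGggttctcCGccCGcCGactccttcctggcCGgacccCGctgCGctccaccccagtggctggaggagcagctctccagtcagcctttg

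Levels below are CPM (counts scaled to a common library total), adjusted by the TMM method within each table. Levels in different tables were scaled separately, are not per transcript length, and are therefore compared within a gene and a table. The depth was 13313052 to 16274568 gene counts for an MV4;11 library and 24574102 to 30256823 for an EOL-1 library. A gene is called where its adjusted p is under 0.05 in edgeR's quasi-likelihood test, with Benjamini-Hochberg adjustment over all genes of the table, and all adjusted p-values come from that test unless another is named.

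The targeted genes were checked first. EZH2 had 9.74 and 9.69 CPM in shEZH2 libraries, against 73.2 and 75.7 CPM in EV libraries, a log2 fold change of -2.94 ± 0.07 (SE; adjusted p = 2.7e-09). In EOL-1, EZH2 had 27.7 and 26.1 CPM in sgEZH2 libraries, against 70.6 and 70.4 CPM in sgEV libraries (log2 -1.39 ± 0.05, adjusted p = 3.2e-13). MYC had 866 and 871 CPM in the libraries labelled sgcMyc guide 1 and 818 and 822 CPM in those labelled guide 5, against 657 and 660 CPM in sgEV (log2 0.36 ± 0.04 over both guides, adjusted p = 1.3e-05). The MYC transcript was thus higher, not lower, in every library labelled sgcMyc. A Cas9 cut need not lower the transcript, so this level checks neither label nor protein, and the directions given for sgcMyc rest on the labels.

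The lines were checked by their receptors and marker genes, which sets levels of separately scaled tables side by side as a description only. PDGFRA, with a row in the EOL-1 table only, had 60.4 and 60.9 CPM in sgEZH2 and 61.8 and 62.3 CPM in sgEV libraries (log2 -0.03 ± 0.04, adjusted p = 0.64). FLT3 was read at 399 to 710 CPM in the 10 MV4;11 libraries and 122 to 142 CPM in the 4 EOL-1 libraries. The 5 markers of KMT2A-rearranged leukaemia, the kind MV4;11 cells come from (HOXA9, HOXA10, MEIS1, PBX3, MEF2C) summed to 490.4 to 654 CPM in MV4;11 and 129.8 to 143 CPM in EOL-1. Not every marker of that sum set the lines apart. HOXA9 was at 52.0 to 65.7 CPM in MV4;11 and 65.9 to 67.6 CPM in EOL-1. MEIS1 was at 44.5 to 62.6 CPM in MV4;11 and 0.914 to 1.49 CPM in EOL-1. Of 8 eosinophil markers, EOL-1 had rows for RNASE2 and RNASE3 alone, at a sum of 73.7 to 79.8 CPM in sgEZH2 and 41.8 to 42.9 CPM in sgEV libraries. MV4;11 had rows for 4 of them, at sums of 69.9 to 214.5 CPM over its 10 libraries, so these markers do not set EOL-1 apart from MV4;11.

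Markers of myeloid cells moved in all 3 main comparisons. Of 10 myeloid markers, 9 were called higher and 0 lower with sgEZH2, 7 higher and 1 lower with sgcMyc, and 3 higher and 5 lower with shEZH2. Over all genes tested, 15.1% were called higher and 11.8% lower with sgEZH2, 18.6% and 18.7% with sgcMyc, and 13.4% and 14.2% with shEZH2. The summed level of the markers was 2610 to 2638 CPM in sgEZH2 against 985.2 to 995.7 CPM in sgEV libraries of EOL-1. It was 5125 to 5164 CPM with sgcMyc guide 1 and 4730 to 4878 CPM with guide 5, against 1329 to 1332 CPM in sgEV, and 1283 to 1315 CPM in shEZH2 against 1024 to 1065 CPM in EV. Lysozyme (LYZ) made up most of the sum where it was high, at 1625 and 1653 CPM in sgEZH2 against 202 and 195 CPM in sgEV libraries of EOL-1, and at 3382 to 3724 CPM in sgcMyc against 159 and 158 CPM in sgEV libraries of MV4;11. With shEZH2, LYZ had 497 and 506 CPM against 186 and 202 CPM in EV libraries. That rise exceeded the rise of the whole sum, so the other markers together were lower with shEZH2. No myeloid marker was at 0, and its part in the results below was not tested. In bulk RNA, fewer cells of a type and less RNA per cell cannot be told apart.

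Between 2 and 6 readout genes were called in each of the 3 main comparisons. With shEZH2 in MV4;11, 2 of the 8 genes tested were called, both lower: the PIM kinases. The comparison called 27.7% of all 13591 genes tested, 13.4% higher and 14.2% lower, so 2 of 8 is close to the background. In EOL-1 with sgEZH2, 2 genes were called higher, PIM2 and SPRED1, and PIM1 was called lower, 3 of 9 beside a background of 26.9% of 13890 genes (15.1% higher, 11.8% lower). SPRED1 could be tested only because it was high in sgEZH2, so its call adds nothing to that share, and DESeq2 called 1 higher and 1 lower. DESeq2 also called fewer of all genes there, 1122 higher and 748 lower, against 2099 and 1639 with edgeR. With sgcMyc over both guides, SOCS2 and BCL6 were called higher and PIM1, PIM2, SPRED2 and SPRY2 lower, 6 of 8 beside a background of 37.3% of 13948 genes (18.6% higher, 18.7% lower). BCL6 could be tested only because it was higher in sgcMyc, so its call adds nothing to that share either, and DESeq2 called 0 higher and 4 lower. Over all genes DESeq2 called 1635 higher and 1584 lower with sgcMyc, against 2591 and 2614 with edgeR. The median log2 fold change of the members was -0.05 with shEZH2, -0.05 with sgEZH2 and -0.21 with sgcMyc, beside 0.00, 0.01 and -0.00 over all genes tested.

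**Figure D1:**
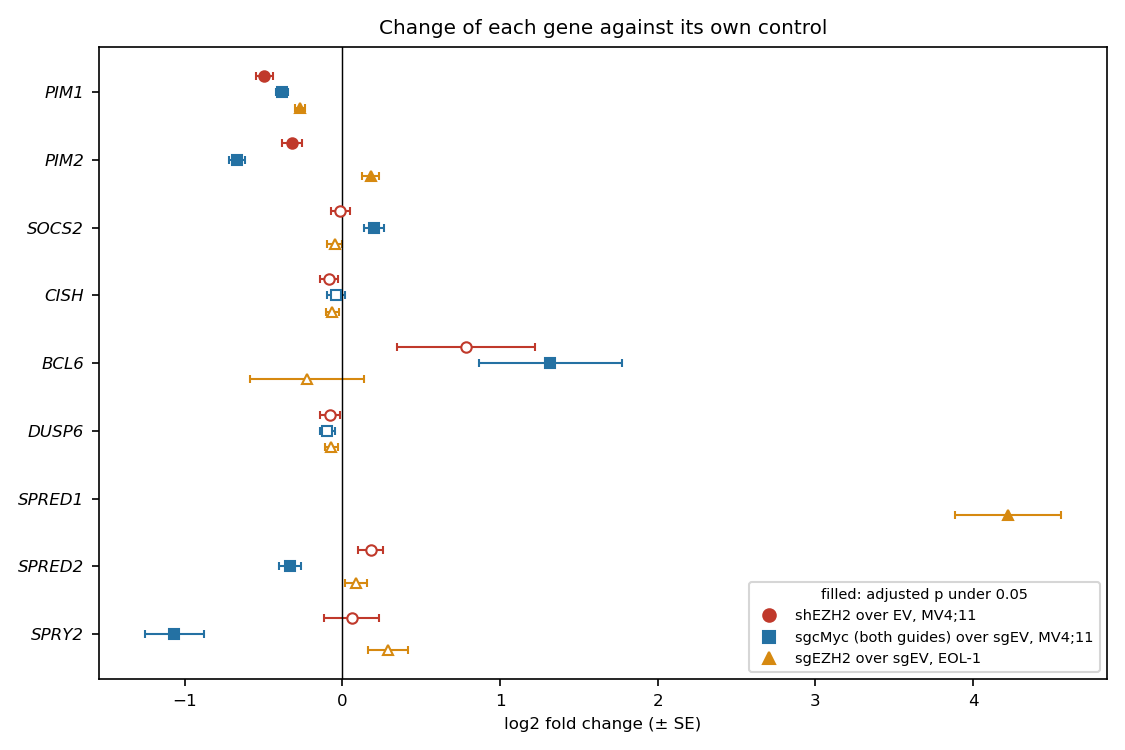
Change of each readout gene against its own control, as log2 fold change with its SE (x axis), for shEZH2 over EV and sgcMyc (both guides) over sgEV in MV4;11 and sgEZH2 over sgEV in EOL-1; filled symbols have an adjusted p under 0.05. PIM1 lies left of 0 in all 3, PIM2 lies left of 0 in MV4;11 and right of it in EOL-1, and SPRED1 in EOL-1, at 4.22, lies apart from every other value.

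PIM1 was lower in every perturbed group, by a modest amount each time. In MV4;11 it had 48.2 and 48.3 CPM in shEZH2 libraries, against 67.4 and 68.7 CPM in EV libraries. In EOL-1 it had 620.5 and 612 CPM in sgEZH2 libraries, against 740.3 and 743 CPM in sgEV libraries. The libraries labelled sgcMyc had 209 and 216 CPM with guide 1 and 177 and 180 CPM with guide 5, against 258 and 251.4 CPM in sgEV. No perturbed library overlapped its controls, but the share of all genes without overlap was not counted. The log2 fold change was -0.49 ± 0.05 with shEZH2 (adjusted p = 5.7e-05), -0.27 ± 0.03 with sgEZH2 (adjusted p = 2.4e-06) and -0.38 ± 0.04 with sgcMyc (adjusted p = 6.9e-06). Expressed as a share of the control, PIM1 stood at 71.0%, 83.1% and 76.6% in the same order.

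PIM2, the close relative of PIM1, fell in both MV4;11 comparisons. It had 48.9 and 50.7 CPM in shEZH2 against 59.6 and 64.7 CPM in EV libraries (log2 -0.32 ± 0.06, adjusted p = 0.00276). With sgcMyc it had 53.9 and 51.9 CPM with guide 1 and 55.9 and 55.4 CPM with guide 5, against 83.7 and 89.0 CPM in sgEV (log2 -0.67 ± 0.05, adjusted p = 5.9e-07), which leaves 62.9% of the control level. In EOL-1 the direction was the other one, with 42.0 and 41.7 CPM in sgEZH2 against 37.9 and 36.0 CPM in sgEV libraries. These groups did not overlap either, which also held for CISH and DUSP6 in EOL-1, neither of them called. The log2 fold change of PIM2 was 0.18 ± 0.05 (adjusted p = 0.0152). That call in EOL-1 was lost with DESeq2 (adjusted p = 0.22) and without sgEV replicate 2 (adjusted p = 0.229).

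**Figure D2:**
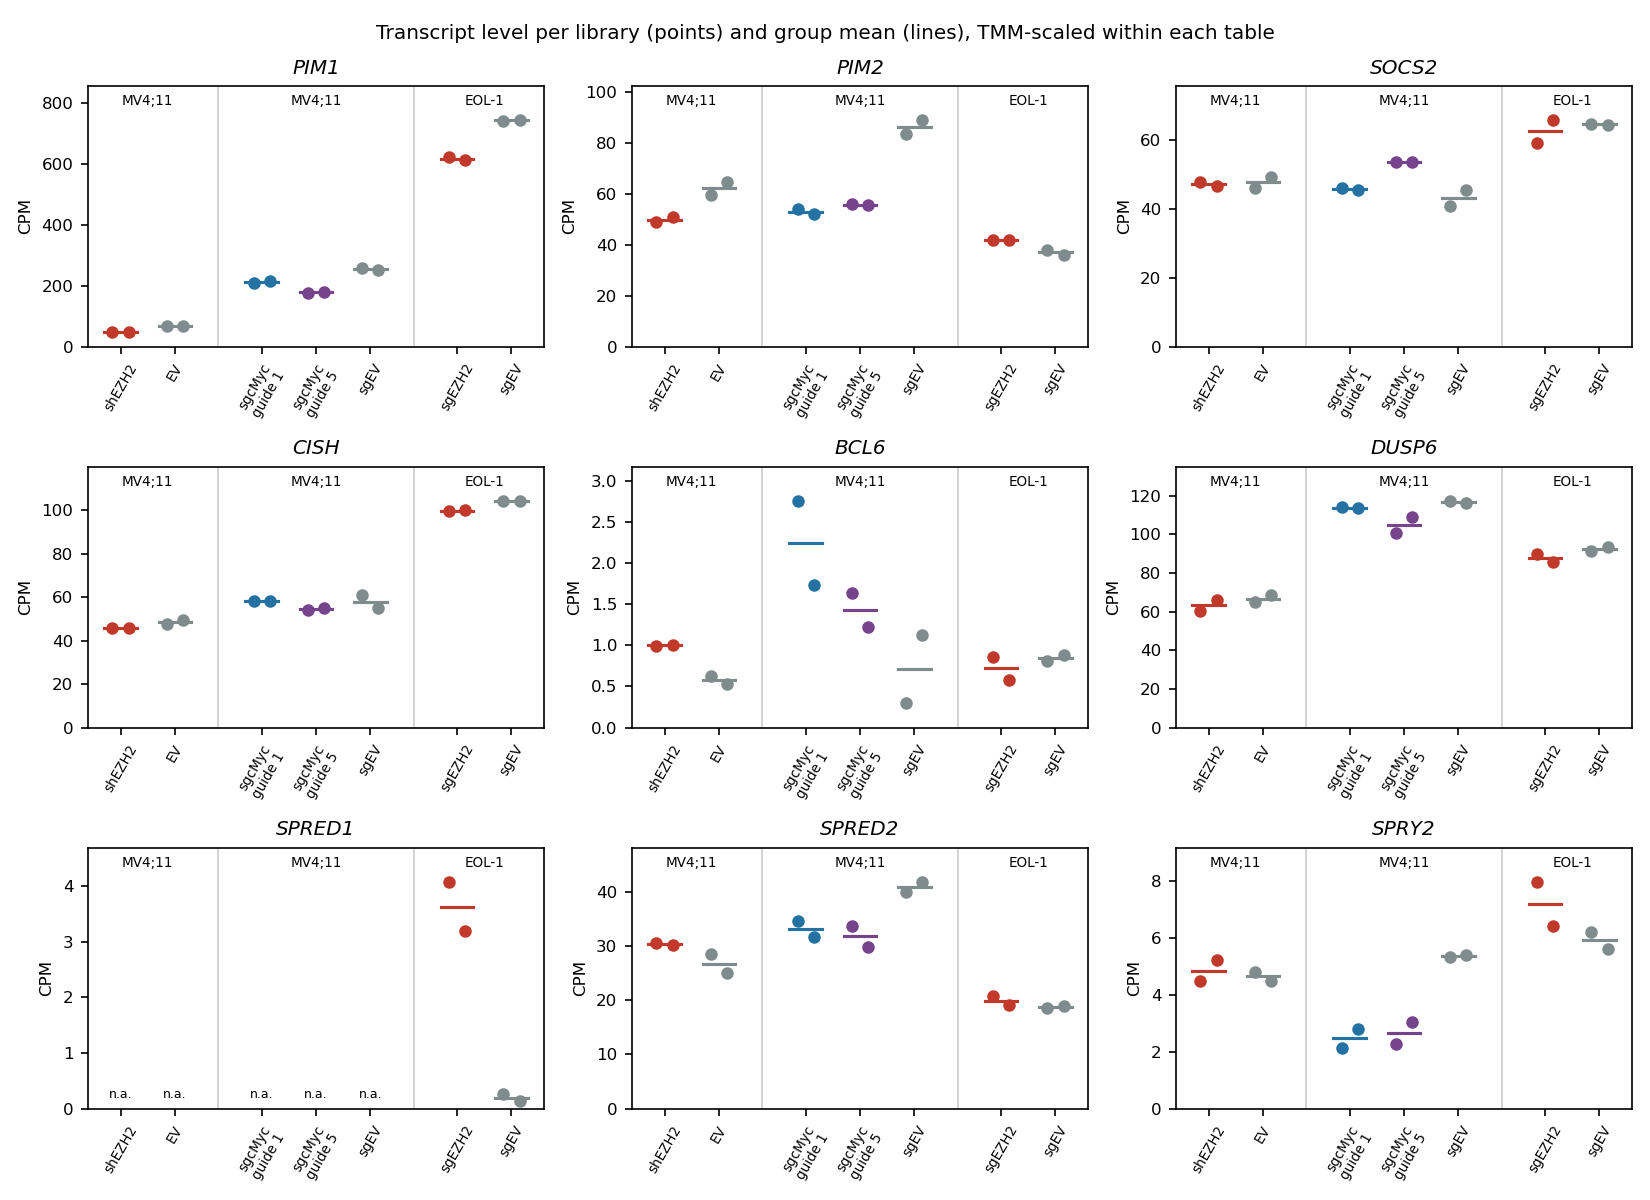
Level of each readout gene in every library (points, CPM, linear axes from 0) with the group mean (lines), each perturbed group left of its control; n.a. marks groups whose table has no row for the gene. Within each table the PIM1 points of the perturbed groups lie below those of their control, and the CISH and DUSP6 points of a table lie close together.

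The EZH2 effects in the 2 lines were called different for both PIM kinases. The difference, the sgEZH2 effect in EOL-1 minus the shEZH2 effect in MV4;11, was 0.22 ± 0.05 on the log2 scale for PIM1 (adjusted p = 0.00729) and 0.49 ± 0.08 for PIM2 (adjusted p = 2.9e-04). That is 2 of 8 genes called, beside 26.5% of 13543 genes. For the other 6 genes the adjusted p was 0.208 or higher. Their differences had 95% intervals of -0.21 to 0.12 for SOCS2, -0.11 to 0.14 for CISH, -0.15 to 0.14 for DUSP6 and -0.31 to 0.11 for SPRED2, and wider ones of -0.20 to 0.65 for SPRY2 and -2.12 to 0.09 for BCL6. All 95% intervals given here use a normal approximation and are narrower than the test allows. EZH2 itself was lowered less by the guide in EOL-1 than by the hairpin in MV4;11 (difference 1.54 ± 0.09, adjusted p = 9.1e-09), and the line, the method and this depth of loss cannot be told apart.

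CISH and SOCS2, the STAT5-induced inhibitors of cytokine receptors, were close to their controls when EZH2 was targeted. CISH had 45.6 and 45.8 CPM in shEZH2 against 47.5 and 49.3 CPM in EV libraries (log2 -0.08 ± 0.06, adjusted p = 0.334, 95% interval -0.20 to 0.03). In EOL-1 it had 99.3 and 100.02 CPM in sgEZH2 against 104.0 and 104.1 CPM in sgEV libraries (log2 -0.06 ± 0.04, adjusted p = 0.26, 95% interval -0.14 to 0.01). It had 58.1 and 58.3 CPM with guide 1 and 54.1 and 54.8 CPM with guide 5, against 60.9 and 54.9 CPM in sgEV (log2 -0.04 ± 0.06, adjusted p = 0.62). The shEZH2 and sgEZH2 libraries lay just below their controls without overlap, by an amount that the test did not call. CISH, whose window holds 4 TTCNNNGAA sites, was thus called in none of the 3 main comparisons.

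SOCS2 had 47.8 and 46.6 CPM in shEZH2 against 46.1 and 49.2 CPM in EV libraries, and 59.1 and 65.7 CPM in sgEZH2 against 64.7 and 64.3 CPM in sgEV libraries of EOL-1. The groups overlapped in both lines, and the log2 fold changes were -0.01 ± 0.06 (adjusted p = 0.905) and -0.05 ± 0.05 (adjusted p = 0.527). With sgcMyc, SOCS2 had 46.1 and 45.5 CPM with guide 1 and 53.6 and 53.6 CPM with guide 5, against 40.8 and 45.4 CPM in sgEV. Over both guides it was called higher (log2 0.20 ± 0.06, adjusted p = 0.0213). The call was lost with DESeq2 (adjusted p = 0.153), without sgEV replicate 1 (adjusted p = 0.287) and without either guide 1 library (adjusted p = 0.0663 without replicate 1 and 0.0548 without replicate 2).

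BCL6 was rarely detected, so its values are the least precise of the STAT5 readouts. It had 16 and 16 counts (0.993 and 1.01 CPM) in shEZH2 against 10 and 8 counts (0.624 and 0.529 CPM) in EV libraries. In EOL-1 it had 23 and 14 counts (0.859 and 0.579 CPM) in sgEZH2 against 22 and 27 counts (0.804 and 0.884 CPM) in sgEV libraries. The log2 fold change was 0.78 ± 0.44 with shEZH2 (adjusted p = 0.212) and -0.22 ± 0.36 with sgEZH2 (adjusted p = 0.712). With sgcMyc, counts were 40 and 26 with guide 1 and 23 and 17 with guide 5, against 4 and 15 in sgEV, and BCL6 was called higher (log2 1.32 ± 0.45, adjusted p = 0.0373). In both MV4;11 tables BCL6 passed the filter on low counts through the perturbed libraries. The sgcMyc call rested on the sgEV library with 4 counts: without it the log2 fold change was 0.67 (adjusted p = 0.331). The call was also lost with DESeq2 (adjusted p = 0.12), without the robust step (adjusted p = 0.0556) and without guide 1 replicate 1 (adjusted p = 0.127), and over 13 alternatives the log2 value ranged from 0.34 to 2.54.

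The kinases and factors upstream of these 5 genes moved in part. FLT3 had 404 and 399 CPM in shEZH2 against 549 and 530 CPM in EV libraries (log2 -0.43 ± 0.04, adjusted p = 1.3e-05), and 498 to 547 CPM in sgcMyc against 710 and 685 CPM in sgEV libraries (log2 -0.40 ± 0.04, adjusted p = 1.2e-05). In EOL-1 FLT3 was instead higher, at 142 and 140 CPM in sgEZH2 against 124 and 122 CPM in sgEV libraries (log2 0.20 ± 0.04, adjusted p = 4.9e-04). STAT5A, one of the 2 STAT5 genes, had 25.7 and 24.7 CPM in shEZH2 against 51.7 and 51.7 CPM in EV libraries (log2 -1.04 ± 0.06, adjusted p = 7.9e-07), which leaves 48.7% of the control level. STAT5B, the other STAT5 gene, had 69.1 and 69.5 CPM in shEZH2 against 58.8 and 57.4 CPM in EV libraries (log2 0.25 ± 0.05, adjusted p = 0.00459), a call lost with DESeq2 (adjusted p = 0.0635) and when scaled to the spike-in RNAs (adjusted p = 0.147). Neither was called with sgEZH2, where the log2 fold change was 0.09 ± 0.07 for STAT5A and -0.07 ± 0.04 for STAT5B.

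DUSP6, the ERK phosphatase whose transcript is a common readout of ERK activity, was not called in any of the 3 main comparisons. It had 60.6 and 66.0 CPM in shEZH2 against 64.8 and 68.7 CPM in EV libraries, whose ranges overlapped (log2 -0.08 ± 0.06, adjusted p = 0.39, 95% interval -0.20 to 0.04). In EOL-1 it had 90.0 and 85.7 CPM in sgEZH2 against 91.2 and 93.4 CPM in sgEV libraries (log2 -0.07 ± 0.04, adjusted p = 0.241, 95% interval -0.15 to 0.01). It had 114.0 and 113.6 CPM with sgcMyc guide 1 and 100.5 and 109.0 CPM with guide 5, against 117.3 and 116.0 CPM in sgEV (log2 -0.10 ± 0.05, adjusted p = 0.13). Leaving out sgEZH2 replicate 1 brought a call in EOL-1 (log2 -0.12, adjusted p = 0.0341), and leaving out guide 5 replicate 2 brought one with sgcMyc (log2 -0.12, adjusted p = 0.0114).

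SPRED1, which brings the RAS inhibitor neurofibromin to the membrane, showed the largest change of any member. In EOL-1 it had 109 and 77 counts (4.07 and 3.18 CPM) in sgEZH2 libraries, against 7 and 4 counts (0.256 and 0.131 CPM) in sgEV libraries. Each sgEZH2 library lay far above both controls. The log2 fold change was 4.22 ± 0.34, or 18.7-fold (95% interval of the log2 value 3.57 to 4.88, adjusted p = 2.1e-08). SPRED1 passed the filter on low counts only through the sgEZH2 libraries. With limma on the authors' log2 values the change was 0.88, called as well.

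SPRED2, its relative, had 30.6 and 30.2 CPM in shEZH2 against 28.6 and 25.0 CPM in EV libraries (log2 0.18 ± 0.08, adjusted p = 0.122), and leaving out EV replicate 1 brought a call (log2 0.28, adjusted p = 0.0129). In EOL-1 it had 20.8 and 19.1 CPM in sgEZH2 against 18.5 and 19.0 CPM in sgEV libraries (log2 0.09 ± 0.07, adjusted p = 0.414). The 4 sgcMyc libraries, with 34.7 and 31.7 CPM for guide 1 and 33.7 and 29.9 CPM for guide 5, all lay below the 40.0 and 41.9 CPM of sgEV. SPRED2 was called lower there (log2 -0.33 ± 0.07, adjusted p = 0.00246), to 79.4% of the control. The call was lost with scaling to the spike-in RNAs (adjusted p = 0.149) and without sgEV replicate 2 (adjusted p = 0.0598).

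SPRY2, a Sprouty inhibitor of signalling from receptor kinases to ERK, was the member with the deepest loss with sgcMyc. It had 2.13 and 2.80 CPM with guide 1 and 2.27 and 3.02 CPM with guide 5, against 5.32 and 5.39 CPM in sgEV, from 31 to 42 counts a library in sgcMyc and 71 and 72 counts in sgEV. The log2 fold change was -1.06 ± 0.19 (adjusted p = 7.7e-04), which leaves 47.8% of the control level, and was -0.43 with limma on the authors' log2 values, called as well. With shEZH2 the groups overlapped, at 4.47 and 5.22 CPM in shEZH2 against 4.80 and 4.49 CPM in EV libraries (log2 0.06 ± 0.17, adjusted p = 0.838). In EOL-1 SPRY2 had 7.95 and 6.41 CPM in sgEZH2 against 6.21 and 5.60 CPM in sgEV libraries (log2 0.29 ± 0.13, adjusted p = 0.108), and leaving out sgEZH2 replicate 2 brought a call (log2 0.43, adjusted p = 0.0201).

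Guide by guide, 4 readout genes were called lower with each MYC guide: PIM1, PIM2, SPRED2 and SPRY2. Guide 1 called 5 of the 8 genes, beside 32.2% of all genes tested, and guide 5 called 6, beside 31.2%. The 5 of guide 1 include BCL6, which could be tested only because it was higher in sgcMyc, so that call adds nothing to the share. DESeq2 called 0 higher and 3 lower with guide 1, and 1 higher and 3 lower with guide 5. Over all genes DESeq2 called 1346 higher and 1279 lower with guide 1, against 2255 and 2234 with edgeR. For guide 5 these counts were 1312 and 1247, against 2192 and 2162. These comparisons share the sgEV libraries. PIM2 changed by -0.71 ± 0.06 on the log2 scale with guide 1 and -0.63 ± 0.06 with guide 5, and SPRY2 by -1.11 ± 0.22 and -1.02 ± 0.22. SPRED2 changed by -0.30 ± 0.08 with guide 1 (adjusted p = 0.0123) and -0.36 ± 0.08 with guide 5 (adjusted p = 0.00488). The guide 1 call of SPRED2 was lost without either sgEV library (adjusted p = 0.0599 and 0.119) without guide 1 replicate 2 (0.142), with DESeq2 (0.107) and with spike-in scaling (0.234), and the guide 5 call without sgEV replicate 2 (0.0691) and with spike-in scaling (0.23). Spike-in scaling also ended the guide 1 call of PIM1 (adjusted p = 0.139), and DESeq2 the guide 5 call of SPRY2 (0.0577). PIM2 was called with each guide in all 14 alternatives.

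BCL6, SOCS2 and DUSP6 were each called with 1 guide, and the difference between the guides was called for none of these. BCL6 was called with guide 1 (log2 1.64 ± 0.49, adjusted p = 0.0219; 0.185 without sgEV replicate 1, 0.196 without guide 1 replicate 1 and 0.0863 with DESeq2) and missed the threshold with guide 5 (log2 1.00 ± 0.52, adjusted p = 0.171). SOCS2 was called with guide 5 (log2 0.31 ± 0.07, adjusted p = 0.00444; 0.0814 without sgEV replicate 1) and missed it with guide 1 (log2 0.09 ± 0.07, adjusted p = 0.381). DUSP6 was called lower with guide 5 (log2 -0.16 ± 0.05, adjusted p = 0.0464) but in 5 of 14 alternatives, and not without either sgEV library, either guide 1 library or guide 5 replicate 1 (adjusted p = 0.0953 to 0.226). Between the guides themselves, no member but PIM1 differed by the test. PIM1 was lower with guide 5 than with guide 1 (log2 -0.25 ± 0.05, adjusted p = 0.0335), 1 of 8 genes beside 0.409% of 13948 (0.0789% higher, 0.330% lower). That call was kept in 8 of 14 alternatives and lost without any single library of sgEV (adjusted p = 0.178 and 0.189) or of guide 1 (0.289 and 0.519), without the robust step (0.066) and with spike-in scaling (0.741).

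**Figure D3:**
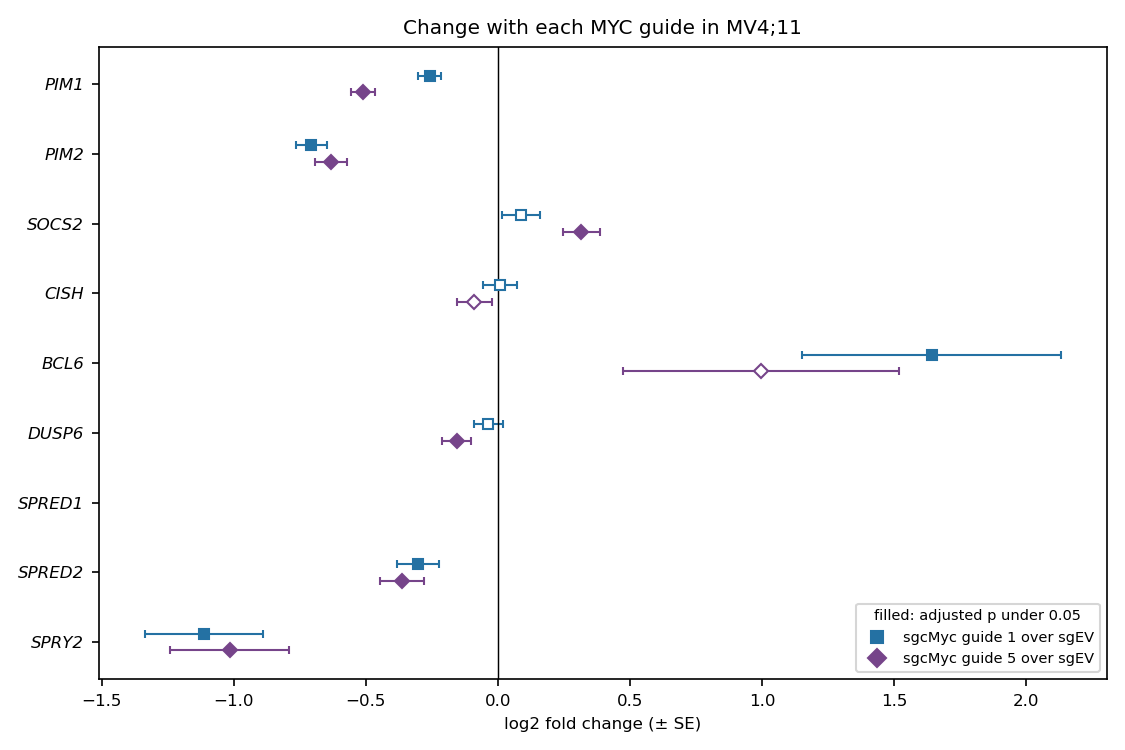
Log2 fold change over sgEV (x axis, with SE) of each readout gene for sgcMyc guide 1 and sgcMyc guide 5 in MV4;11; filled symbols have an adjusted p under 0.05, and SPRED1 has no row in this table. The 2 guides lie side by side for PIM2, SPRED2 and SPRY2, while for PIM1 guide 5, at -0.51, lies left of guide 1, at -0.26.

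Other genes of the same pathways were read from lists chosen by knowledge of the pathway, again with earlier results of these data known. They are set beside the background shares given above. Counts given with DESeq2 belong beside its own fewer calls over all genes. Those were 905 higher and 939 lower with shEZH2, 1122 and 748 with sgEZH2, and 1635 and 1584 with sgcMyc. Of 8 receptor genes tested with shEZH2, 5 were called higher and 2 lower (list median log2 0.33), among them IL3RA, the interleukin-3 receptor chain, at 0.61 ± 0.08 (adjusted p = 1.5e-04). In EOL-1, 6 of 9 receptor genes were called higher and 0 lower (median 0.25). CSF1R, the receptor for macrophage colony-stimulating factor, stood out there with 36.9 and 35.6 CPM in sgEZH2 against 2.27 and 3.04 CPM in sgEV libraries (log2 3.76 ± 0.10, adjusted p = 3.7e-15). With sgcMyc, 5 of 8 receptor genes were called higher and 2 lower (median 0.21), IL6R at 0.78 ± 0.04 (adjusted p = 2.5e-08) and IL3RA at -0.44 ± 0.06 (adjusted p = 7.2e-05). Guide 1 alone gave 5 higher and 2 lower, and guide 5 alone 2 higher and 2 lower. DESeq2 called 3 higher and 2 lower over both guides.

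The JAK-STAT components were called lower more often than higher with shEZH2 and the other way round with sgEZH2. With shEZH2, 3 of 16 were called higher and 9 lower (median -0.18), including STAT2 at -0.59 ± 0.08 (adjusted p = 2.5e-04), SH2B3, the adaptor that restrains JAK2, at -0.50 ± 0.07 (adjusted p = 5.2e-04) and the kinase TYK2 at -0.33 ± 0.05 (adjusted p = 6.6e-04). With sgEZH2, 6 of 16 were called higher and 2 lower (median 0.11), with STAT3 at 0.30 ± 0.04 (adjusted p = 4.7e-05). With sgcMyc, 3 of 16 were called higher and 2 lower (median 0.01), among them the kinase genes JAK1 at 0.27 ± 0.04 (adjusted p = 2.1e-04) and JAK2 at 0.30 ± 0.05 (adjusted p = 7.2e-04). Of the 2 called lower, 1 was JAK3, with 4 to 9 counts in sgcMyc and 18 and 16 in sgEV libraries. JAK3 passed the filter on low counts only through sgEV, so its call adds nothing to that count.

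Further STAT5-responsive genes did not move as 1 group. Of the tested ones, 1 of 10 was called higher and 3 lower with shEZH2 (median 0.05; 0 and 0 with DESeq2, 1 and 1 with spike-in scaling), 5 of 12 higher and 2 lower with sgEZH2 (median 0.12) and 4 of 12 higher and 4 lower with sgcMyc (median 0.10). CCND2, the gene of cyclin D2, had 10.3 and 10.0 CPM in sgEZH2 against 0.767 and 1.08 CPM in sgEV libraries of EOL-1 (log2 3.44 ± 0.17, adjusted p = 1.8e-11). With sgcMyc the same gene was lower, at 25.0 to 29.2 CPM against 51.0 and 54.7 CPM in sgEV (log2 -0.93 ± 0.07, adjusted p = 5.4e-07). PIM3, the remaining PIM kinase, was at -0.38 ± 0.06 with sgcMyc (adjusted p = 3.1e-04), IL2RA, an interleukin-2 receptor chain, at -2.03 ± 0.30 (adjusted p = 1.8e-04) and TNFSF10, which encodes the death ligand TRAIL, at 1.02 ± 0.14 (adjusted p = 1.4e-04). The IL2RA value rests on few counts, 5 to 17 a library in sgcMyc and 41 and 37 in sgEV.

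On the ERK side, more listed genes were called lower than higher in the sgcMyc libraries. Of 11 other ERK output and feedback genes, 1 was called higher and 6 lower (median -0.62), among them ETV5, an ETS factor that ERK signalling induces, at -0.90 ± 0.05 (adjusted p = 4.2e-08) and CCND1, the gene of cyclin D1, at -1.95 ± 0.16 (adjusted p = 1.3e-06), while the early-response gene EGR1 was at 0.26 ± 0.05 (adjusted p = 0.00118). Guide 1 alone gave 1 higher and 4 lower in this list (median -0.30), and guide 5 alone 1 higher and 8 lower (median -0.69). DESeq2 gave 1 higher and 3 lower with guide 1, and 0 higher and 2 lower with guide 5. Between the guides, 0 genes of the list were called. Of 25 RAS-MAPK cascade genes, 2 were called higher and 11 lower (median -0.15), with RPS6KA1, an ERK-activated kinase, at -0.50 ± 0.04 (adjusted p = 5.2e-07) and the adaptor GAB2 at -0.47 ± 0.05 (adjusted p = 1.4e-05). Of 10 further SOCS and DUSP family genes, 1 was called higher and 5 lower (median -0.33), with DUSP7 at -0.57 ± 0.04 (adjusted p = 5.6e-07), SOCS7 at -0.60 ± 0.07 (adjusted p = 1.5e-05), DUSP10 at -0.68 ± 0.09 (adjusted p = 6.5e-05) and DUSP1 at 1.09 ± 0.14 (adjusted p = 5.6e-05). With DESeq2 the ERK output list had 1 gene called higher and 3 lower with sgcMyc. The cascade list had 1 higher and 11 lower, and the SOCS and DUSP list 1 higher and 3 lower. Scaled to the spike-in RNAs, the median of all genes was 0.113 on the log2 scale with sgcMyc, and the share of calls that were higher was 72.85%, against 49.78% with TMM. Under that scaling the ERK output list had 1 gene called higher and 3 lower (median -0.50), the cascade list 2 higher and 6 lower (median -0.03) and the SOCS and DUSP list 3 higher and 5 lower (median -0.22). Scaling shEZH2 in that way gave 36.39%, against 48.54% with TMM, and 0 JAK-STAT genes called higher and 7 lower.

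With the EZH2 perturbations the cascade list was close to the background share. With shEZH2, 1 of 9 ERK output genes was called higher, ETV4 at 0.76 ± 0.13 (adjusted p = 0.00148), and 1 lower (median -0.10). With sgEZH2, 4 of 9 were called higher and 3 lower (median 0.49; 1 and 1 with DESeq2), with the phosphatase gene DUSP4 at 1.08 ± 0.07 (adjusted p = 1.8e-09) and ETV4 at -0.61 ± 0.12 (adjusted p = 5.8e-04). Among the 25 cascade genes, 3 were called higher and 4 lower with shEZH2 (median -0.00), and 3 higher and 3 lower with sgEZH2 (median -0.01). RASGRP2, an exchange factor known for activating RAP proteins, was higher in both, at 0.70 ± 0.05 with shEZH2 (adjusted p = 3.7e-06) and 0.44 ± 0.05 with sgEZH2 (adjusted p = 2.4e-06). RPS6KA3 was at -0.70 ± 0.06 with shEZH2 (adjusted p = 1.5e-05). NF1, the gene of neurofibromin, the partner of SPRED1, was also higher in both. It was at 0.32 ± 0.06 with shEZH2 (adjusted p = 0.00338) and 0.45 ± 0.08 with sgEZH2 (adjusted p = 2.7e-04). The other SOCS and DUSP genes had 0 higher and 1 lower of 9 with shEZH2 (median 0.17), DUSP7 at -0.73 ± 0.05 (adjusted p = 2.1e-06), and 1 higher and 1 lower of 9 with sgEZH2 (median 0.08).

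**Figure D4:**
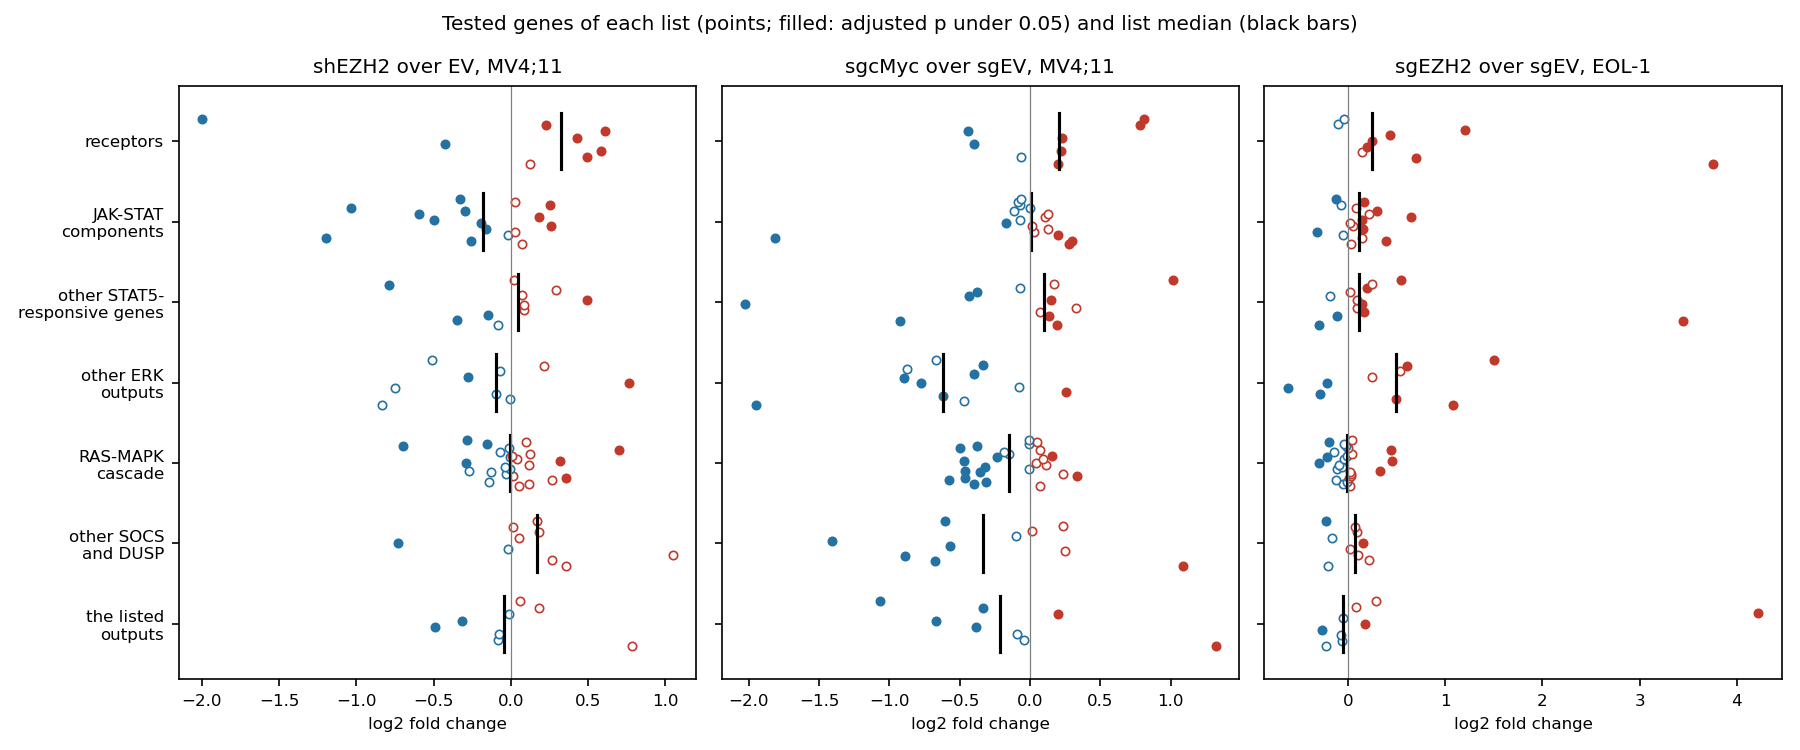
Log2 fold change (x axis, a different range in each panel) of every tested gene of 6 pathway lists and of the readout genes, in shEZH2 over EV, sgcMyc over sgEV and sgEZH2 over sgEV; points are genes, filled where the adjusted p is under 0.05, and black bars are list medians. The ERK output list lies mostly left of 0 with sgcMyc (median -0.62 over both guides), while the readout genes have medians of -0.05, -0.21 and -0.05 from left to right.

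The genes whose pattern over the 14 libraries was most like CISH, by Pearson correlation of log2 CPM centred on each library's own control mean, among 12403 genes tested in all tables, were FAM86B3P (0.89), RUNX3 (0.85) and RP11-313P13.3 (0.84). For DUSP6 they included RCHY1 (0.92) and PANK2 (0.89). The libraries of a table share their controls, and both members hardly moved, so these values describe small deviations.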

How the data were processed

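Total RNA of 14 libraries, 2 in each of 7 groups, was sequenced (NEBNext Ultra II libraries, per the labels' protocols). Samples were grouped by title, and table columns, which carry shorter names, were matched to them by inference from comparison, target, guide and replicate number. Each of 3 tables held 1 comparison. Its raw columns hold expected counts (estimated counts that need not be whole), deposited by the authors, and its normalised columns hold log2 values that the authors computed (method not given in the sources used here). RSEM, DESeq and build hg19 are named in the submitters' processing notes. For strand use, aligner, annotation and versions no statement is given in the sources used here, so reads of overlapping or antisense genes cannot be told apart. Both MV4;11 tables list 56 spike-in rows (1.057 to 1.301% of counts), kept out of library sizes and tests, and every table has 18 rows with a date in place of a symbol, which stayed in as unnamed genes.

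Expected counts were rounded and tested within each table with edgeR 4.0.16 in R 4.3.3 (filterByExpr with a minimum count of 10, TMM, robust glmQLFit, glmQLFTest, Benjamini-Hochberg, threshold 0.05). The sgcMyc value is the mean of guides 1 and 5 minus sgEV in a fit of 3 groups. Effects of EZH2 in the 2 lines were compared as an interaction in 1 fit of both tables, over genes with rows in both. The SE is the absolute log2 fold change over the root of the F statistic. Alternatives used DESeq2 1.42.0, limma 3.58.1 on the authors' log2 values, other scalings and filters, a replicate block and each library left out. The steps were tested on simulated data with 200 changed genes. Libraries of a group differed beyond sampling noise (chi-square per degree of freedom 1.47 to 5.467), the most with guide 5, so none was counted as a copy. Biological coefficients of variation were 0.0352 (shEZH2), 0.0257 (EOL-1) and 0.0422 (sgcMyc).

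Named genes are all listed members, EZH2, MYC, FLT3 and PDGFRA, and from each pathway list genes among the 4 with the smallest p in each main comparison. STAT5B, STAT5A in EOL-1, LYZ, HOXA9 and MEIS1 fall outside that rule and were chosen after their values were seen. Members and lists were chosen with earlier results of these data known. Marker lists of other cells had few rows: 1 for T and NK cells (NKG7), 1 or 2 for B cells, erythroid and megakaryocyte cells and epithelial cells and fibroblasts, and 1 for mast cells (TPSB2, at most 1.05 CPM). Some genes that this rule names are not reported here.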

Additional observations from a re-analysis of the deposited data

Results flagged for a closer look

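The effects of sgEZH2 in EOL-1 and shEZH2 in MV4;11 were called different for 2 of 8 readout genes. The interaction contrast of edgeR's quasi-likelihood test was used, as sgEZH2 over sgEV in EOL-1 minus shEZH2 over EV in MV4;11. It called 26.5% of 13543 genes, so 2 of 8 is close to the background. The line, the method and the depth of EZH2 loss cannot be told apart. PIM1 differed by 0.22 on the log2 scale (adjusted p = 0.00729), with both lines lower than their controls, and PIM2 by 0.49 (adjusted p = 2.9e-04), with the lines on opposite sides of their controls. Both held in all 14 alternatives run, with adjusted p-values of 0.00398 to 0.0378 for PIM1 and 6.2e-05 to 0.00418 for PIM2.

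The same contrast was called for the genes read beside them. EZH2 differed by 1.54 (adjusted p = 9.1e-09), MYC by -0.30 (adjusted p = 1.2e-04) and FLT3 by 0.62 (adjusted p = 1.6e-07). The STAT5 genes differed in opposite directions, STAT5A by 1.12 (adjusted p = 1.8e-07) and STAT5B by -0.33 (adjusted p = 0.00102). MYC had 681 and 689 CPM in shEZH2 against 573 and 583 CPM in EV libraries, and 655 and 660 CPM in sgEZH2 against 673 and 680 CPM in sgEV libraries of EOL-1. Groups of 2 libraries are too small for a check of single libraries that stand apart.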

How the results depend on the processing

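Over all comparisons, 680 of 752 alternative values of the members kept direction and side of the threshold, 40 lost a call, 6 gained one and 26 turned direction, none of the 26 called in either form. PIM1 in the 3 main comparisons, PIM2 with shEZH2 and sgcMyc, SPRY2 with sgcMyc and SPRED1 in EOL-1 were called in every alternative that gave a value. For SPRED1 this adds little, as it could be tested only through the libraries where it was high. Its log2 value ranged from 0.88 to 4.74. SPRED1, BCL6 and (with sgcMyc) SPRY2 were not tested at a mean of at least 50 counts. Scaling to the spike-in RNAs also ended the guide 5 call of DUSP6 (adjusted p = 0.934). The cause of the lost calls was not tested. In EOL-1, leaving out sgEZH2 replicate 2 brought a SOCS2 call (log2 -0.13, adjusted p = 0.0432).

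Replicate numbers are shared between groups but did not pair the libraries (correlation of same-numbered deviations 0.0698 for shEZH2, -0.119 in EOL-1 and -0.0225 to 0.0877 in the sgcMyc table). A replicate block moved the genes called higher and lower to 2349 and 2358 with shEZH2, 2077 and 1699 in EOL-1, 2827 and 2831 with sgcMyc, 1994 and 1917 for the difference between lines, and 33 and 96 between the guides, where the unblocked counts were 11 and 46. A crossed pairing in EOL-1, added after seeing the data, gave 2199 and 1724.

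DESeq2 called fewer genes, higher and lower: 905 and 939 with shEZH2, 1122 and 748 in EOL-1, 1635 and 1584 with sgcMyc, 1346 and 1279 with guide 1, 1312 and 1247 with guide 5, and 1129 and 917 for the difference between lines. Spike-in scaling gave 805 higher with shEZH2, and 1169 lower with sgcMyc, 1015 with guide 1 and 828 with guide 5; between the guides it gave 0 higher and 1 lower. Between the guides, limma on the authors' log2 values gave 18 higher. Members called with guide 1 fell to 3 with DESeq2, at a mean of at least 50 counts and with spike-in scaling, and between the guides to 0 with spike-in scaling.

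With each library left out in turn, genes called higher and lower ranged over 1186 to 2200 and 1286 to 2072 with shEZH2, 1569 to 2022 and 1020 to 1942 in EOL-1, 1427 to 3094 and 1502 to 3083 with sgcMyc, 1243 to 2899 and 1234 to 2859 with guide 1, 1174 to 2602 and 1185 to 2473 with guide 5, 4 to 418 and 3 to 456 between the guides (the highest without guide 5 replicate 1), and 1484 to 1946 and 1151 to 1676 for the difference between lines. The lowest came without shEZH2 replicate 1 (shEZH2), without sgEV replicate 2 (EOL-1) and without an sgEV library (sgcMyc and each guide). Members called ranged over 2 to 3, 2 to 5, 4 to 7, 3 to 5, 4 to 6, 0 to 1 and 2 to 2 in the same order.

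Log2 values that turned direction were all small. Spike-in scaling gave CISH 0.0749 with sgcMyc and 0.0578 with guide 5, DUSP6 0.0188 with sgcMyc and 0.0480 with guide 1, and SPRED2 0.0054 between the guides. A mean of at least 50 counts gave CISH -0.000056 with guide 1 and DUSP6 0.0101 for the difference between lines. With libraries left out, the range spanned 0 with shEZH2 for SOCS2 (-0.0593 to 0.0323) and SPRY2 (-0.0551 to 0.168). In EOL-1 it did so for BCL6 (-0.551 to 0.0221) and SOCS2 (-0.128 to 0.0193), and for CISH with sgcMyc (-0.112 to 0.0370) and with guide 1 (-0.0637 to 0.0851). Between the guides it did so for SPRED2 (-0.150 to 0.0271) and SPRY2 (-0.118 to 0.312). For the difference between lines it did so for CISH (-0.0019 to 0.0481), DUSP6 (-0.0558 to 0.0717), SOCS2 (-0.121 to 0.0319) and SPRED2 (-0.195 to 0.0046). Depth limits BCL6, SPRED1 and SPRY2, with 4 to 213 counts a library.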
